A study of Danio rerio with 10 samples.

Results

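The nuclear genes of the mitochondrial respiratory chain were followed in zebrafish embryos after knockdown of Atg7, of Bdh2 or of both. They were chosen by name alone: a probe set belonged where its gene symbol began with nduf, sdha to sdhd, sdhaf, uqcr, cox4 to cox8 or atp5, or was cyc1. The rule matched 95 of the 15502 tested probe sets. Of these, 2 carried several gene symbols and were left out, so 93 probe sets were described, which stand for 86 of the 8793 genes named on the array. Complex I had 35 of them, complex II 4, complex III 9, complex IV 16 and complex V 17. Assembly factors of complex I (ndufaf genes) had 7, assembly factors of complex II (sdhaf genes) 3, and the inhibitors of complex V 2. The probe sets of ndufa4a and ndufa4b were placed with complex IV, where the mammalian NDUFA4 protein is known to reside.

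Complexes I to IV pass electrons from NADH and succinate to oxygen, and complexes I, III and IV pump protons out of the mitochondrial matrix. Complex V, the ATP synthase, lets the protons back in and makes ATP. Each complex joins catalytic core subunits with accessory subunits, and assembly factors help to build it without staying in it. Atg7 is an enzyme that autophagy needs in order to form its membranes, and autophagy is a route by which cells remove mitochondria, also in maturing red blood cells. Bdh2 is a short-chain dehydrogenase that has been linked in mammals to a small iron-binding molecule, and iron is a part of the haem groups and iron-sulfur clusters of complexes I to IV.

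Total RNA of whole wild-type embryos was hybridised to 1-colour Affymetrix arrays at 72 h post fertilization (hpf). Eggs at the 1- to 2-cell stage had received 1 to 2 nL of morpholino at 130 µmol/L, an antisense oligomer that keeps its target transcript from being translated or spliced. The groups were control morphants (3 arrays), Atg7 morphants (3 arrays), Atg7 and Bdh2 dual morphants (3 arrays, called dual here) and Bdh2 morphants (1 array), so all groups carried an injected morpholino. Whether the concentration applied to each morpholino or to their sum in the dual injection was not stated. A knockdown by morpholino is transient and reaches all tissues, and in whole embryos a change in the number of cells of a type and a change in RNA per cell cannot be told apart.

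Values are log2 probe set intensities, and a difference of 1 is a doubling. A member was called higher or lower where limma, fitted to all tested probe sets and all 10 arrays, gave a Benjamini-Hochberg adjusted p of 0.05 or less. Array medians lay between 6.33 and 6.38. The labels do not say whether replicates are separate clutches. The p-values therefore reflect only how far these arrays spread, which may be technical. Comparisons with the Bdh2 array take its spread from the other groups and have no replicate check. The gap between the 3′ and 5′ control probe sets of the skeletal muscle actin acta1 widens with RNA degradation or incomplete labelling. This gap was 3.41 to 3.53 log2 units in controls, 3.86 to 4.05 in Atg7, 3.83 to 3.91 in dual and 4.30 in Bdh2 morphants. It was thus wider in every morphant array than in every control array (exact permutation test, two-sided, p = 0.1 for Atg7 and for dual against control, the smallest that 3 against 3 arrays allow). The same gap for GAPDH was 1.53 to 1.63 in controls, 1.53 to 1.77 in Atg7, 1.67 to 1.72 in dual and 1.70 in Bdh2 morphants. For GAPDH the Atg7 arrays overlapped with the controls, while the dual and Bdh2 arrays lay above all controls. The part of either gap in any difference from control was not tested.

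Of the targeted genes only bdh2 was analysed here, and its level gave no check of the labels. The bdh2 probe set read 7.17, 7.07 and 7.27 in controls, 7.22, 7.18 and 7.22 in Atg7, 7.38, 7.28 and 7.17 in dual and 7.47 in Bdh2 morphants. Its level in the Bdh2 array was 0.30 ± 0.101 (SE) above control (limma adjusted p = 0.0429), and in dual morphants 0.11 ± 0.0718 above it (adjusted p = 0.297). A morpholino need not lower the level of its target transcript.

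The medians of complexes I to V lay near 0 in the Atg7 morphants, and 4 single members were called. The median difference from control was 0.00 for complex I, -0.06 for complex II, -0.04 for complex III, -0.03 for complex IV and 0.00 for complex V, against -0.01 over all tested probe sets. Of the 93 members 4 were called, which is 4.3%, while 9.91% of all tested probe sets were called. Of these 1 was higher (1.08%, against 6.26% of all) and 3 were lower (3.23%, against 3.64%). Complexes II, III and V had no called subunit in limma, and none of their probe sets had an unadjusted p under 0.05. When the variance prior was allowed to follow the intensity (limma with trend), 11 members were called (11.8%, against 13.6% of all). The arrays of the groups did not overlap for 36 members (38.7%), against 30.4% of all tested probe sets.

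**Figure D1:**
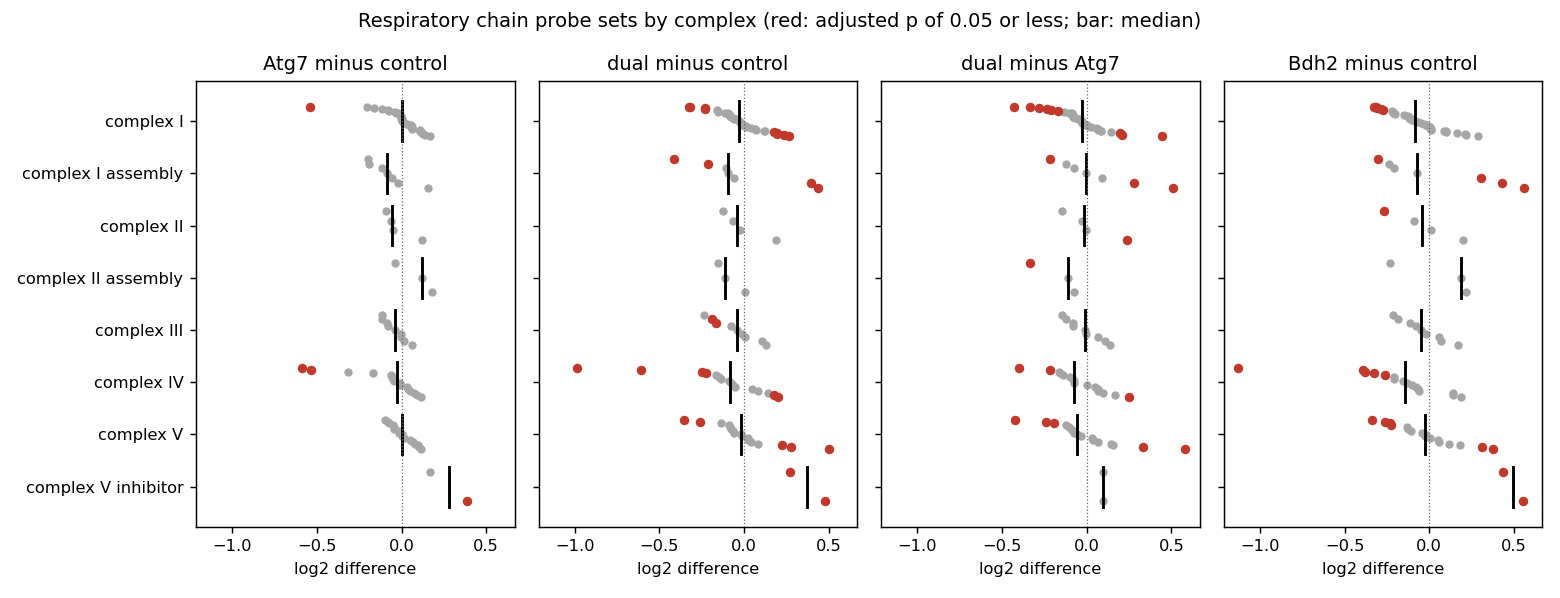
Log2 difference of each of the 93 member probe sets (1 point each), by complex (rows) and comparison (panels, same horizontal axis). Red points had a limma adjusted p of 0.05 or less and black bars are medians. The medians of complexes I to V stay between -0.14 and 0.00 in all 4 panels, while single members, such as the complex IV point at -0.99 in dual minus control, lie far from them.

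The 4 members that differed between Atg7 morphants and controls were subunits of complexes I and IV and an inhibitor of complex V. The largest difference was that of cox4i1l, a form of subunit 4 of complex IV, a matrix-facing accessory subunit that in mammals is involved in the control of the enzyme by ATP. It read 7.72, 7.67 and 7.68 in controls, 7.10, 7.07 and 7.12 in Atg7, 6.90, 6.64 and 6.55 in dual and 6.56 in Bdh2 morphants. All morphant arrays lay below all controls, and the dual and Bdh2 arrays lay below the Atg7 arrays. It fell by 0.59 ± 0.0816 (SE) in Atg7 morphants, which is 1.5-fold (limma adjusted p = 0.000882). Another complex IV subunit, cox6b1, which faces the intermembrane space, read 10.40, 10.44 and 10.49 in controls, 9.99, 9.83 and 9.91 in Atg7, 9.84, 9.87 and 9.77 in dual and 10.05 in Bdh2 morphants. Here too every morphant array was below every control, but the Atg7 and dual arrays overlapped. The fall in Atg7 morphants was -0.54 ± 0.0628 (adjusted p = 0.00027).

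The complex I member ndufb8, an accessory subunit of the membrane arm, had another pattern. It read 11.13, 11.09 and 11.06 in controls, 10.56, 10.60 and 10.51 in Atg7, 11.02, 11.02 and 10.95 in dual and 10.87 in Bdh2 morphants. The Atg7 arrays were the lowest, and the dual arrays lay between them and the controls with no overlap. The difference was -0.54 ± 0.0573 for Atg7 minus control (limma adjusted p = 0.000132) and -0.09 for dual minus control (adjusted p = 0.249). The rise was in atp5if1b, one of 2 genes for the inhibitory factor that stops ATP synthase from running backwards and hydrolysing ATP. It read 8.37, 8.37 and 8.39 in controls, 8.72, 8.73 and 8.84 in Atg7, 8.79, 8.91 and 8.87 in dual and 8.81 in Bdh2 morphants. Every morphant array was above every control, and the Atg7 difference was 0.39 ± 0.0606 (adjusted p = 0.002). Of the members that were not called, ndufa4b had the largest difference, at -0.32 (adjusted p = 0.0547). Red blood cell markers were lower too: all 11 marker probe sets were called lower in Atg7 morphants, and their mean level was 9.17 to 9.21 in controls and 8.17 to 8.22 in Atg7 morphants. The part of red blood cells in these 4 differences was not tested.

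**Figure D2:**
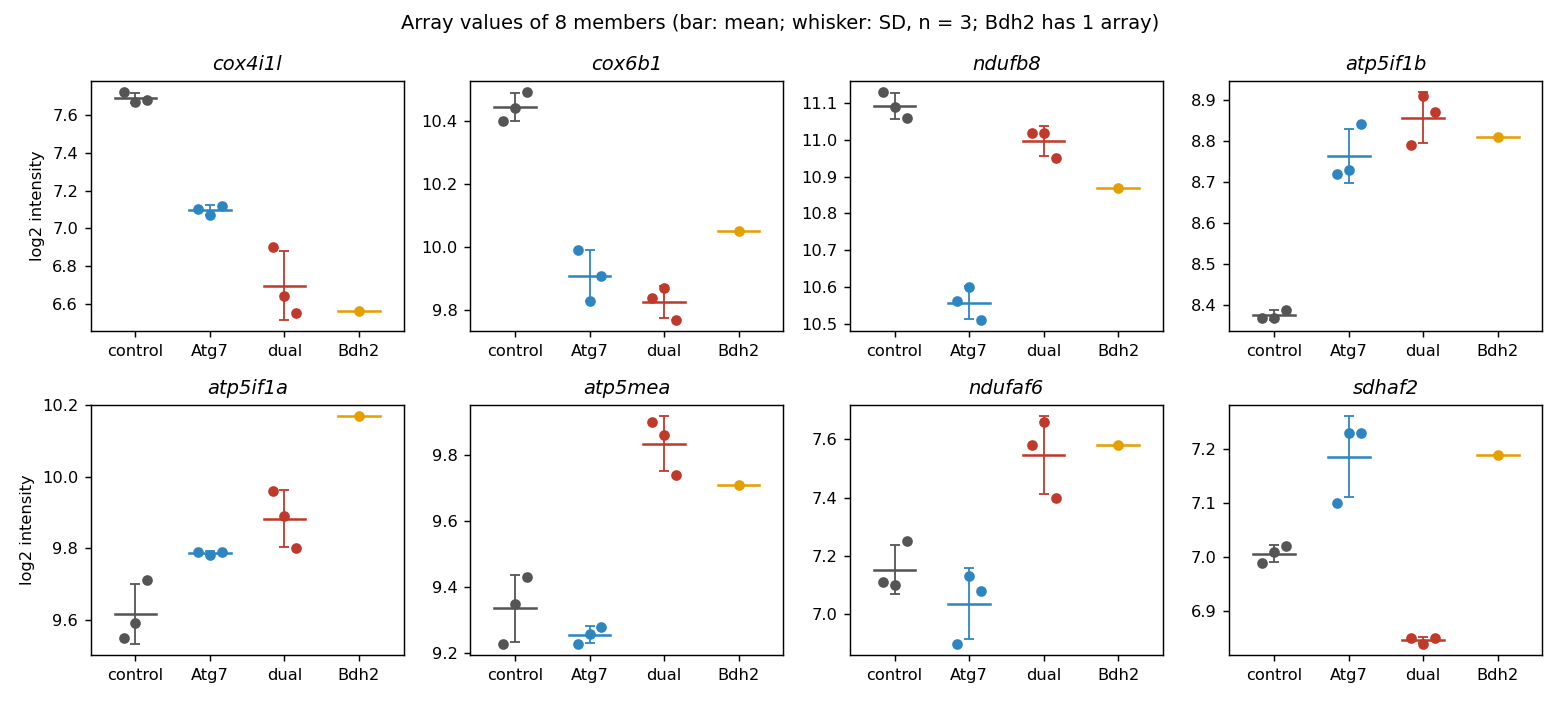
Log2 intensity in every array for 8 members, by group. Horizontal bars are means and whiskers SD (n = 3; the Bdh2 group has 1 array), and each panel has its own vertical axis that does not start at 0. The controls and the morphants separate fully for cox4i1l, cox6b1, ndufb8, atp5if1b and atp5if1a. Among the groups, ndufb8 is lowest in Atg7 morphants and sdhaf2 is lowest in dual morphants.

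In dual morphants more members differed from control, in both directions. Of the 93 members 28 were called (30.1%, against 32.5% of all tested probe sets), 14 of them higher (15.1%, against 16.7%) and 14 lower (15.1%, against 15.9%). The share was thus close to that of the whole array, and with trend it was 40.9% against 35.1%. The arrays did not overlap for 55 members (59.1%, against 46.4% of all). Differences were small: the median size over members was 0.11 log2 units against 0.14 over all tested probe sets. A size of 0.5 or more was reached by 3 members (3.23%), while 8.3% of all tested probe sets reached it. These 3 were cox4i1l, cox6b1 and atp5mea. The median difference was -0.03 for complex I, -0.05 for complexes II and III, -0.08 for complex IV and -0.02 for complex V, against -0.01 over all tested probe sets. The median over the complex IV probe sets, taken in each array relative to the control mean, was -0.09 to -0.08 in the 3 dual arrays. It was -0.01 to 0.01 in the 3 controls, which are centred by construction because they set the reference. In the dual arrays this median was -0.062 to -0.011 for complex I and -0.065 to -0.007 for complex II. It was -0.079 to -0.018 for complex III and -0.037 to 0.009 for complex V.

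Of all tested probe sets 16.7% were called higher and 15.9% lower in dual morphants. Complex I had 5 of 35 probe sets called higher and 4 lower. Among the lower ones ndufb9, an accessory subunit of the membrane arm, read 10.66, 10.64 and 10.71 in controls, 10.78, 10.76 and 10.79 in Atg7, 10.41, 10.36 and 10.26 in dual and 10.46 in Bdh2 morphants. The dual arrays were below all controls and Atg7 arrays, at -0.33 ± 0.0589 against control (limma adjusted p = 0.00115). The accessory subunit ndufa10 read 10.59, 10.61 and 10.61 in controls, 10.62, 10.57 and 10.68 in Atg7, 10.26, 10.34 and 10.26 in dual and 10.48 in Bdh2 morphants. Its dual arrays were again the lowest, with a difference from control of -0.32 ± 0.0578 (adjusted p = 0.00117). The other lower subunits were ndufa8 (-0.23) and ndufs7 (-0.23), the latter the core subunit whose iron-sulfur cluster hands electrons to ubiquinone.

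Among the higher complex I subunits, ndufa2 read 9.80, 9.64 and 9.91 in controls, 9.84, 9.83 and 9.84 in Atg7, 10.01, 10.14 and 9.98 in dual and 10.07 in Bdh2 morphants. The dual arrays did not overlap with the controls, and the difference was 0.26 ± 0.075 (limma adjusted p = 0.0181). The call of ndufa2 ended without control replicate 2 (adjusted p = 0.0867) and without dual replicate 2 (0.0835). The accessory subunit ndufb7 read between 9.94 and 10.02 in controls, 10.09, 10.25 and 10.13 in Atg7, 10.31, 10.19 and 10.16 in dual and 10.20 in Bdh2 morphants. Its dual arrays were above all controls but overlapped with the Atg7 arrays, at 0.23 ± 0.0665 over control (adjusted p = 0.0175). That call ended without control replicate 3 (0.0617) and without dual replicate 1 (0.0682). The other higher subunits were ndufs6 (0.19), ndufa3 and ndufb5. The level of ndufb5 was 9.60, 9.62 and 9.72 in controls, 9.58, 9.70 and 9.63 in Atg7, 9.90, 9.88 and 9.74 in dual and 9.66 in Bdh2 morphants. The dual arrays were the highest (adjusted p = 0.0414 against control), but the call ended without control replicate 1 or 2 or dual replicate 1 or 2 (adjusted p up to 0.128) and with quantile normalization (0.0516).

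The complex I assembly factors gave 2 higher and 2 lower calls among 7 probe sets, against 16.7% higher and 15.9% lower of all. The chaperone ndufaf2, which in mammals acts late in assembly, read 6.61, 6.44 and 6.43 in controls, 6.61, 6.66 and 6.68 in Atg7, 6.87, 6.93 and 6.99 in dual and 7.05 in Bdh2 morphants. The dual and Bdh2 arrays were above all others, and dual minus control was 0.44 ± 0.0663 (limma adjusted p = 0.000339). For ndufaf6, which in mammals acts early in assembly, the values were 7.11, 7.10 and 7.25 in controls, 6.90, 7.13 and 7.08 in Atg7, 7.58, 7.66 and 7.40 in dual and 7.58 in Bdh2 morphants. Again the dual and Bdh2 arrays were the highest, with a rise of 0.40 ± 0.0847 over control (adjusted p = 0.00342).

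The factors ndufaf8 and ndufaf5 are partners in humans, where NDUFAF5 modifies the NDUFS7 subunit. The level of ndufaf8 was 6.90, 6.87 and 6.70 in controls, 6.68, 6.57 and 6.62 in Atg7, 6.49, 6.28 and 6.45 in dual and 6.62 in Bdh2 morphants. The dual arrays were the lowest, by -0.42 ± 0.0749 against control (limma adjusted p = 0.00111). That of ndufaf5 was 7.39, 7.33 and 7.25 in controls, 7.30, 7.18 and 7.22 in Atg7, 7.03, 7.14 and 7.15 in dual and 7.02 in Bdh2 morphants. Its dual arrays were below all controls, by -0.21 ± 0.0641 (adjusted p = 0.0233), a call that ended without control replicate 1 (adjusted p = 0.0945), control replicate 2 (0.067) or dual replicate 1 (0.0837).

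No subunit of complex II was called in dual morphants against control, and 1 of 4 had an unadjusted p under 0.05. Complex III had 2 lower calls among 9 probe sets, both small, while 15.9% of all tested probe sets were called lower. The cytochrome subunit cyc1 read 10.88, 10.83 and 11.00 in controls, 10.80, 10.78 and 10.79 in Atg7, 10.67, 10.70 and 10.78 in dual and 10.69 in Bdh2 morphants. The dual arrays were below all controls, by -0.19 ± 0.0631 (limma adjusted p = 0.0357). The small subunit uqcrq read 10.87, 10.84 and 10.83 in controls, 10.80, 10.73 and 10.76 in Atg7, 10.64, 10.72 and 10.68 in dual and 10.66 in Bdh2 morphants. Its dual arrays were also below all controls, by -0.17 ± 0.0552 (adjusted p = 0.0375). Both calls were fragile: that of uqcrq ended without any 1 of the 6 control and dual arrays (adjusted p up to 0.111), and that of cyc1 without control replicate 1 or 3 or dual replicate 1 or 2 (up to 0.133). With quantile normalization both ended as well (adjusted p = 0.0928 for uqcrq and 0.0691 for cyc1).

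Complex IV held the largest differences of all members in dual morphants. For cox4i1l the fall was -0.99 ± 0.0816, or 1.99-fold (limma adjusted p = 2.78e-06), and for cox6b1 it was -0.61 ± 0.0628 (adjusted p = 1.74e-05). The accessory subunit cox7a2a read 10.85, 10.85 and 10.88 in controls, 10.87, 10.84 and 10.85 in Atg7, 10.59, 10.67 and 10.64 in dual and 10.53 in Bdh2 morphants, and dual minus control was -0.23 ± 0.0543 (adjusted p = 0.00654). The dual and Bdh2 arrays were below all others. The related cox7a2l, which in mammals joins complexes III and IV into a supercomplex, fell by 0.25 ± 0.058 (adjusted p = 0.00596).

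The higher complex IV subunits were cox6c and cox6b2. The level of cox6c was 11.84, 11.86 and 11.84 in controls, 11.81, 11.91 and 11.68 in Atg7, 12.01, 12.10 and 12.04 in dual and 11.99 in Bdh2 morphants. That of cox6b2 was 12.32, 12.40 and 12.28 in controls, 12.44, 12.45 and 12.46 in Atg7, 12.46, 12.52 and 12.55 in dual and 12.52 in Bdh2 morphants. The dual arrays were above all controls for both, by 0.20 ± 0.067 (limma adjusted p = 0.0373) for cox6c and 0.18 ± 0.058 (adjusted p = 0.0347) for cox6b2. Without any 1 of the 6 control and dual arrays the call of cox6c ended (adjusted p up to 0.125), and that of cox6b2 ended without control replicate 1 or 3 or dual replicate 2 or 3 (up to 0.112).

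In complex V the members that moved were small membrane subunits and the rotor. Subunit e, atp5mea, which helps ATP synthase to form dimers, read 9.23, 9.35 and 9.43 in controls, 9.23, 9.26 and 9.28 in Atg7, 9.90, 9.86 and 9.74 in dual and 9.71 in Bdh2 morphants. The small proteolipid atp5mj read 11.02, 11.02 and 11.07 in controls, 10.98, 10.89 and 11.08 in Atg7, 11.33, 11.40 and 11.21 in dual and 11.35 in Bdh2 morphants. In both, the dual and Bdh2 arrays were above all control and Atg7 arrays. The rise over control was 0.50 ± 0.0686 for atp5mea (limma adjusted p = 0.00016) and 0.28 ± 0.0696 for atp5mj (adjusted p = 0.00853). A further small subunit, atp5md, rose by 0.22 (adjusted p = 0.00837).

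The lower members of complex V were atp5mc3a, a gene for the subunit of the rotating c-ring, and atp5f1d, the delta subunit of the central stalk. The level of atp5mc3a was 11.42, 11.37 and 11.42 in controls, 11.41, 11.48 and 11.52 in Atg7, 10.96, 11.09 and 11.10 in dual and 11.14 in Bdh2 morphants. That of atp5f1d was 10.79, 10.81 and 10.60 in controls, 10.68, 10.74 and 10.72 in Atg7, 10.46, 10.51 and 10.45 in dual and 10.40 in Bdh2 morphants. The dual and Bdh2 arrays were the lowest for both. Dual minus control was -0.35 ± 0.0618 for atp5mc3a (limma adjusted p = 0.000906) and -0.26 ± 0.0667 for atp5f1d (adjusted p = 0.0104), and the latter call ended without control replicate 2 (adjusted p = 0.052).

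Both inhibitor genes were higher in dual morphants. The level of atp5if1a, which zebrafish red blood cells need for haem synthesis, was 9.55, 9.59 and 9.71 in controls, 9.79, 9.78 and 9.79 in Atg7, 9.96, 9.89 and 9.80 in dual and 10.17 in Bdh2 morphants. Every morphant array was above every control. The rise over control was 0.27 ± 0.0655 in dual morphants (limma adjusted p = 0.00757), and 0.17 in Atg7 morphants, where it was not called (adjusted p = 0.129). For atp5if1b it was 0.48 ± 0.0606 in dual morphants (adjusted p = 8.63e-05). Red blood cell markers went the other way, with all 11 probe sets called lower and a mean level of 7.67 to 7.71 in dual morphants against 9.17 to 9.21 in controls. The part of cell composition in these differences was not tested.

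The comparison of dual with Atg7 morphants reads what the Bdh2 morpholino added to the Atg7 morpholino, together with any difference in morpholino dose. The dose of each morpholino in the dual injection was not stated, so the added morpholino and the dose cannot be told apart. The calls were spread over complexes I, II, IV and V and their assembly factors. In dual minus Atg7, 22 of 93 members were called (23.7%, against 33.0% of all tested probe sets), 9 higher (9.68%, against 15.8%) and 13 lower (14.0%, against 17.2%). The members' share was below the background here, but with trend it was 36.6% against 35.4%, and without dual replicate 2 only 14 members were called (15.1%, against 26.2%). The arrays did not overlap for 50 members (53.8%, against 44.1% of all). Median differences were -0.03 for complex I, -0.02 for complex II, -0.01 for complex III, -0.08 for complex IV and -0.06 for complex V, against 0.01 over all tested probe sets.

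The largest of these differences was that of atp5mea, 0.58 ± 0.0686 higher (limma adjusted p = 5.04e-05), followed by ndufaf6, 0.51 ± 0.0847 higher (adjusted p = 0.00066). ndufb8 was 0.45 ± 0.0573 higher in dual than in Atg7 morphants (adjusted p = 0.000101), ndufb9 was lower, at -0.43 ± 0.0589 (adjusted p = 0.000155), and cox4i1l was lower still than in Atg7 morphants, at -0.40 ± 0.0816 (adjusted p = 0.00263). The rotor gene atp5mc3a differed by -0.42 and ndufa10 by -0.34. For cox6b1 the difference was -0.08 (adjusted p = 0.387), and for atp5if1b 0.09 (adjusted p = 0.266). Complex III had no called member in limma, and 1 of its 9 probe sets had an unadjusted p under 0.05.

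The sdhaf2 gene, whose product attaches the flavin cofactor to the Sdha subunit, was called only between the groups that carried the Atg7 morpholino among the comparisons of triplicates. It read 6.99, 7.01 and 7.02 in controls, 7.10, 7.23 and 7.23 in Atg7, 6.85, 6.84 and 6.85 in dual and 7.19 in Bdh2 morphants. The Atg7 arrays were above all controls and the dual arrays below them. Dual minus Atg7 was -0.34 ± 0.0572 (limma adjusted p = 0.000781), while Atg7 minus control was 0.18 (adjusted p = 0.0679) and dual minus control -0.15 (adjusted p = 0.0563). The iron-sulfur subunit sdhb, at 9.98, 9.97 and 10.02 in controls, 9.87, 9.92 and 10.03 in Atg7, 10.26, 10.24 and 10.03 in dual and 10.19 in Bdh2 morphants, was called higher in dual than in Atg7 morphants (0.24 ± 0.0742, adjusted p = 0.028). Its groups overlapped, and the call ended without Atg7 replicate 1 or 2 or dual replicate 1 or 2 (adjusted p up to 0.105) and with quantile normalization (0.0515).

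In the single Bdh2 array more members were called lower than higher against control, by a margin that varied with the arrays kept. Of 93 members 23 were called (24.7%, against 28.2% of all tested probe sets), 7 higher (7.53%, against 15.0%) and 16 lower (17.2%, against 13.2%). With trend 39 were called (41.9%, against 30.9%), 15 higher and 24 lower, so that the members' share lay on the other side of the background. Without control replicate 1 only 12 were called, 5 higher and 7 lower (12.9%, against 23.8% of all), and without control replicate 2 also 12, 4 higher and 8 lower (12.9%, against 23.3%). Complex IV had the lowest median of complexes I to V, -0.14 against 0.04 over all tested probe sets, and complexes I (-0.09), II (-0.04), III (-0.05) and V (-0.03) lay closer to 0.

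The lower members of the Bdh2 array included 5 of the 16 complex IV probe sets. The difference for cox4i1l was -1.13 ± 0.115, or 2.18-fold (limma adjusted p = 2.4e-05), and it was the only member that changed by 2-fold or more in any of these comparisons. cox6b1 (-0.39), cox4i2 (-0.38), which in mammals replaces the usual subunit 4 in low oxygen, cox7a2a (-0.33) and cox8a (-0.26) were also lower. In complex I the core iron-sulfur subunits ndufs7 (-0.31) and ndufs1 and the accessory subunits ndufa9a (-0.32), ndufa8 (-0.31) and ndufa13 (-0.27) were lower. None was called higher in limma, and 3 had an unadjusted p under 0.05 and a positive difference. In complex II sdha, the flavoprotein that oxidises succinate, was lower (adjusted p = 0.0318). In complex V atp5f1d (-0.34), atp5mc3a (-0.26), atp5mc1 (-0.23) and the catalytic subunit atp5f1b (-0.22) were lower. Those of atp5mc3a, atp5mc1 and atp5f1b passed the threshold only narrowly, and all rest on 1 Bdh2 array. As given above, fewer members were called without control replicate 1 or 2.

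The higher members of the Bdh2 array were complex I assembly factors, small complex V subunits and the inhibitors. Of the 7 complex I assembly factor probe sets 3 were called higher and 1 lower, and their median difference was -0.07. The members called higher were ndufaf2 (0.56 ± 0.0937, limma adjusted p = 0.000943), atp5if1a (0.55 ± 0.0926, adjusted p = 0.000913), atp5if1b (0.44), ndufaf6 (0.43), atp5mea (0.38), atp5mj (0.31) and ndufaf4. Of the 26 skeletal muscle marker probe sets 15 were called lower and 4 higher in this array, and their mean level was 10.84, against 11.05 in controls. Neuron markers were lower as well (mean level 8.07, against 8.28 to 8.30; 8 of 15 lower and 3 higher), and so were those of red blood cells (7.88, against 9.17 to 9.21; 9 of 11 lower). Their part in the Bdh2 differences was not tested.

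The Bdh2 morpholino was thus read in a pair of comparisons that share no array. In dual minus Atg7 both groups carried the Atg7 morpholino, and in Bdh2 minus control neither did. Of the 22 members called in dual minus Atg7, 20 (90.9%) had the same sign in Bdh2 minus control, against 86.7% of the 5115 probe sets called over the whole array. The 2 with the opposite sign were ndufb8 and sdhaf2. Called in both were 10 members, which is 45.5% of the 22 and 43.5% of the 23, and all 10 had the same sign. Over the whole array 2659 probe sets were called in both, which is 52.0% of the first list and 60.8% of the second, and 2529 of them had the same sign. Lower in both were cox4i1l, cox7a2a, atp5mc3a, atp5f1d, ndufs7 and ndufa13, and higher in both were atp5mea, atp5mj, ndufaf2 and ndufaf6. Across the 93 members the differences had a Pearson r of 0.61, against 0.74 across all tested probe sets, as a description across probe sets, which are not independent.

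**Figure D3:**
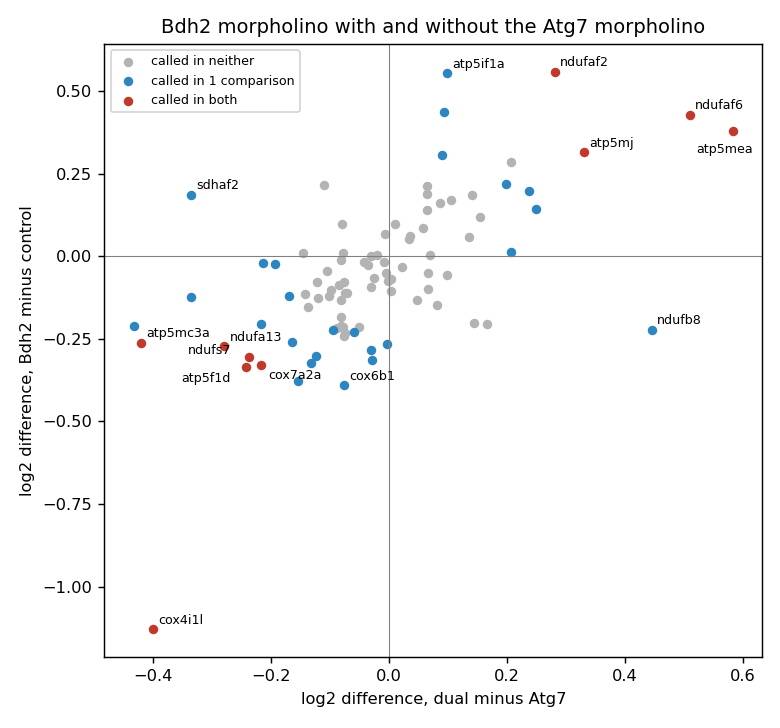
Log2 difference of each member probe set in dual minus Atg7 (horizontal) and in Bdh2 minus control (vertical, 1 Bdh2 array), which share no array. Red points had an adjusted p of 0.05 or less in both, blue in 1 and grey in neither. The 10 red points lie in the quadrants of equal sign, and ndufb8 and sdhaf2 lie in the opposite ones.

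The Atg7 morpholino was read in the same way with Bdh2 knocked down (dual minus Bdh2), against the single array. The part of a difference in morpholino dose was not tested here either. Only 2 members were called (2.15%, against 12.1% of all tested probe sets), ndufaf4 at -0.41 ± 0.0988 and sdhaf2 at -0.34 (limma adjusted p = 0.0182 for ndufaf4), both lower (2.15%, against 5.53%). No member was called higher in limma (6.53% of all were), while 5 of 93 had an unadjusted p under 0.05 and a positive difference. With trend 9 members were called (9.68%, against 15.3% of all), 4 of them higher and 5 lower. Of the 4 members called in Atg7 minus control, none was called here, and cox4i1l and ndufb8 had the opposite sign. Over the whole array 417 of the 1536 probe sets called in Atg7 minus control (27.1%) were called here too, and 63.9% of the 1536 had the same sign. The differences had a Pearson r of -0.03 across the members and 0.22 across all tested probe sets.

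Where the dual morphants differed from the sum of the single knockdowns, 4 members were called (4.3%, against 8.13% of all tested probe sets), 2 of them above the sum (2.15%, against 3.81%) and 2 below it (2.15%, against 4.32%). With trend 10 were called, 7 above and 3 below, and their share of 10.8% equalled that of all tested probe sets. This contrast is dual minus Atg7 minus Bdh2 plus control and rests on the single Bdh2 array. A difference in morpholino dose between dual and single injections would enter it too, and its part was not tested. Above the sum were cox4i1l, by 0.73 ± 0.141 (limma adjusted p = 0.00823), whose fall in dual morphants was smaller than the falls of the single knockdowns added, and ndufb8, by 0.67 ± 0.0993 (adjusted p = 0.00159). Below it were sdhaf2, at -0.52 ± 0.0991 (adjusted p = 0.00704), and atp5if1a, at -0.46 ± 0.113 (adjusted p = 0.0293). The call of atp5if1a ended without control replicate 1 or 2, Atg7 replicate 2 or 3 or dual replicate 2 or 3 (adjusted p up to 0.0707). Red blood cell markers were above the sum in 9 of 11 probe sets, and their part was not tested.

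Several genes of the chain exist in zebrafish as pairs of related genes. In dual minus control cox6b1 differed by -0.61 and cox6b2 by 0.18, in opposite directions, and the cox6b2 call was fragile, as given above. The signs of cox5aa (-0.05) and cox5ab (0.08) were also opposite, but neither was called (limma adjusted p = 0.501 and 0.353). In the pairs that follow the signs were the same, but not every gene was called. For subunit 4 of complex IV, cox4i1l differed by -0.99 and cox4i2 by -0.17 (limma adjusted p = 0.0779). Subunit e differed by 0.50 for atp5mea and by 0.02 for atp5meb (limma adjusted p = 0.776). The c-ring genes differed by -0.35 for atp5mc3a and -0.07 for atp5mc3b (limma adjusted p = 0.364). The inhibitor genes atp5if1a and atp5if1b both rose. Levels of different probe sets cannot be compared, and the difference between related genes was not tested. Of the 86 genes 6 had more than 1 probe set, and 1 of the 3 ndufab1a probe sets was called lower in dual than in Atg7 morphants (-0.21, adjusted p = 0.0478), whereas the others differed by -0.08. The ndufab1a probe sets carry a suffix for sequence shared with other transcripts.

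The other lists of nuclear mitochondrial genes held calls in both directions in dual morphants, with lower calls outnumbering higher ones in all but the list of mitochondrial DNA expression and regulators. Of the 69 probe sets of mitochondrial ribosome proteins 25 were called lower (36.2%) and 7 higher (10.1%) against control, with a median of -0.14. Citric acid cycle and pyruvate entry genes had 11 of 30 lower (36.7%) and 3 higher, and import genes of the tomm and timm families had 7 of 19 lower and 2 higher. Other assembly factors of the chain had 7 of 26 lower and 1 higher. Electron carrier and nucleotide exchange genes, a list that also holds both atp5if1 members, had 8 of 25 lower and 3 higher. Genes for the expression of mitochondrial DNA and regulators of mitochondrial biogenesis had 3 of 24 lower and 4 higher. The share over all tested probe sets was 15.9% lower and 16.7% higher, and the difference between lists was not tested. In Atg7 morphants each of these lists had at most 2 probe sets called lower and 2 higher. Lower calls made up 2.9% (mitochondrial ribosome) to 10.5% (import) of a list, against 3.64% of all tested probe sets. Higher calls made up 0.0% (ribosome, import and other assembly factors) to 8.0% (electron carriers), against 6.26% of all.

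Named genes of these lists show the sizes in dual minus control. The ubiquinone synthesis factor coq9 fell by 1.02 (limma adjusted p = 7.77e-07), the cytosolic malate dehydrogenase gene mdh1ab fell by 0.86 (adjusted p = 3.13e-06), the complex IV associated factor higd1a fell by 0.77 (adjusted p = 3.22e-06) and the complex I assembly factor ecsit fell by 0.73 (adjusted p = 3.98e-05). The adenine nucleotide carrier slc25a4 fell by 0.41 (adjusted p = 0.00015) and the import gene timm50 by 0.58. In the mitochondrial ribosome list mrpl39 (-0.65) and mrps23 (-0.46) were lower, and mrps5 (0.94) and mrpl32 (0.55) were higher. Also higher was pdk4 (0.78), the kinase that shuts off pyruvate dehydrogenase. The mrps5 probe set carries a suffix for sequence shared with other transcripts. In the Bdh2 array slc25a4 fell by 1.37 (adjusted p = 1.92e-07), mdh1ab by 1.22 and coq9 by 1.16, each a larger difference than that of any respiratory chain member there. In Atg7 morphants citrate synthase, cs, fell by 0.35 (adjusted p = 0.00502), and aco1, the cytosolic aconitase that also acts as an iron sensor, rose by 0.56 (adjusted p = 0.000723). With the Bdh2 morpholino added, aco1 was lower than in Atg7 morphants, at -0.89 in dual minus Atg7 (limma adjusted p = 3.64e-06).

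The subunits encoded by mitochondrial DNA were represented by COX1 alone, the catalytic subunit of complex IV, with 3 probe sets. Their mean level was 13.90 to 13.96 in controls, 14.00 to 14.05 in Atg7, 14.12 to 14.23 in dual and 14.19 in Bdh2 morphants. The groups of triplicates did not overlap in this mean. Single probe sets did not overlap for 30.4% of all tested in Atg7 minus control, 46.4% in dual minus control and 44.1% in dual minus Atg7. All 3 probe sets were called higher in dual morphants (median 0.24), as were 16.7% of all tested probe sets. In the Bdh2 array 2 were called higher (median 0.24), as were 15.0% of all. In Atg7 minus control none of the 3 was called (median 0.09), while 6.26% of all tested probe sets were called higher. In dual minus Atg7 1 was called higher (median 0.15), as were 15.8% of all. The probe sets are of 1 gene, and at least 1 of them carries a suffix for sequence shared with other transcripts. Values near the top of the scale may be compressed, which was not tested.

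**Figure D4:**
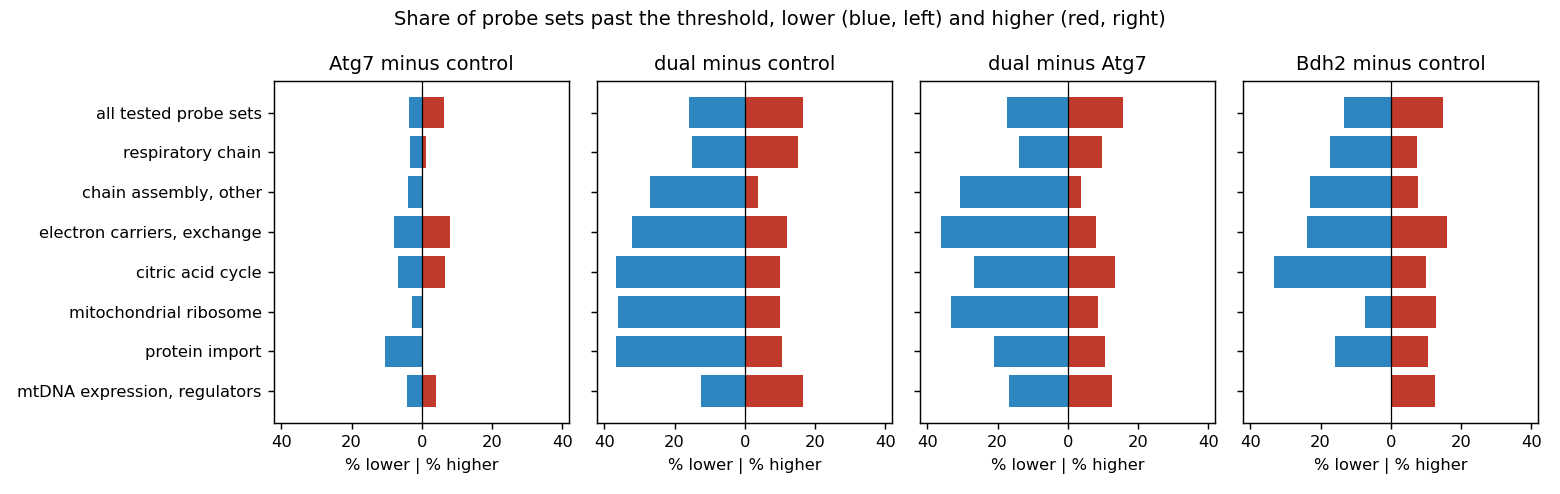
Share of probe sets called lower (blue, to the left) and higher (red, to the right), in percent of each list, for all tested probe sets, the 93 respiratory chain members and 6 other mitochondrial lists, in 4 comparisons. In dual minus control 36.2% of the mitochondrial ribosome list is lower, against 15.1% of the respiratory chain and 15.9% of all tested probe sets.

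Among the tissue markers, the skeletal muscle list had a mean level of 11.05 in controls, 11.02 to 11.03 in Atg7 and 11.04 to 11.06 in dual morphants. The mean level of the heart list was 8.42 to 8.46 in controls, 8.41 to 8.47 in Atg7 and 8.20 to 8.22 in dual morphants. In dual minus control 7 of 26 muscle probe sets were lower and 3 higher, and 2 of 3 heart probe sets were lower. The mean level of the neuron list was 8.28 to 8.30 in controls, 8.53 to 8.61 in Atg7 and 8.69 to 8.73 in dual morphants, with 9 and 11 of 15 probe sets called higher. The 3 lens probe sets had a mean of 7.86 to 8.04 in controls, 8.34 to 8.48 in Atg7, 9.09 to 9.18 in dual and 8.38 in Bdh2 morphants, and all 3 were called higher in dual morphants. The mean of the 7 liver probe sets was 9.57 to 9.70 in controls, 9.68 to 9.69 in Atg7, 9.44 to 9.45 in dual and 9.18 in Bdh2 morphants, where 2 were called lower and 1 higher than control. The part of any tissue in the values of the respiratory chain members was not tested.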

How the data were processed

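The authors deposited log2 intensities, 1 per probe set and array, made with Affymetrix Expression Console per the submitters' processing notes. Summarisation, background correction and normalization are not given in the sources used here, and that the scale is log2 was read from the values, 2.48 to 14.88. Equal array medians would hide a change common to most transcripts, and summaries over probes can compress differences at either end of the scale. Of 15617 probe sets, 115 control probe sets were left out. Gene names came from the platform annotation, which gives 1 symbol for 10795 of the 15502 tested probe sets, several for 135 and none for 4572. All 93 members had an Entrez ID in the RefSeq gene table (assembly GRCz12tu), with no symbol changed.

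Groups follow the sample titles. The 10 arrays were fitted together (4 groups, 6 residual degrees of freedom) in R 4.3.3 with limma 3.58.1 (lmFit, eBayes), using Benjamini-Hochberg adjustment across all tested probe sets. The steps were tested on simulated data. Errors are SE of the fit, and no detection calls were used. The number of arrays limits the precision. Members, lists and tests were chosen with earlier results of these data known. Array values are printed for the 2 largest rises and falls past the threshold per complex in each comparison of triplicates. Genes named from other lists are among those with the 2 smallest p in each direction, and not all of these are named. Alternatives were quantile normalization, a filter on dim probe sets (mean under 4.66, the 25th percentile), a trend in the variance prior, the replicate number as a block and leaving out each replicate. Counting ndufa4a and ndufa4b with complex I, and counting the probe sets with several symbols, were chosen after seeing the data. No promoter or protein sequence was used here.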

Additional observations from a re-analysis of the deposited data

Results flagged for a closer look

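In 4 members a test of the difference itself (limma, dual minus Atg7 minus Bdh2 plus control) gave an adjusted p under the threshold for the difference of the Bdh2 morpholino with and without the Atg7 morpholino. That is 4.3% of the 93 members, against 8.13% of all tested probe sets. The differences were 0.668 for ndufb8 (adjusted p = 0.00159), 0.726 for cox4i1l (adjusted p = 0.00823), -0.522 for sdhaf2 (adjusted p = 0.00704) and -0.455 for atp5if1a (adjusted p = 0.0293). All 4 rest on 1 Bdh2 array, and the part of a difference in morpholino dose was not tested. Leaving out 1 replicate at a time gave 0.643 to 0.692 for ndufb8, 0.624 to 0.801 for cox4i1l, -0.563 to -0.501 for sdhaf2 and -0.504 to -0.412 for atp5if1a. The call of atp5if1a ended in 6 of these 9 fits (adjusted p up to 0.0707), and the calls of the other members did not end in any of the 9. Groups of 3 arrays are too small for a search for single outlying arrays.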

How the results depend on the processing

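The number of members called in Atg7 minus control was 4, and 7 with dim probe sets left out, against 15.6% of all. With a trend in the variance prior it was 11 (13.6% of all), and in dual minus Atg7 it was 34 in place of 22 (35.4%), in Bdh2 minus control 39 in place of 23 (30.9%), in dual minus Bdh2 9 in place of 2 (15.3%) and in the departure from additivity 10 in place of 4 (10.8%). The labels do not say whether same-numbered arrays are paired. Their deviations correlated at -0.37 to 0.20, above 0.1 in 2 of 9 pairs, and 2 of 9 correlated best with their own number. These values showed no clear shared replicate effect, but they cannot show that the arrays were unpaired. With the replicate block the counts were 4 in Atg7 minus control (6.49% of all), 24 in dual minus control (29.2%), 15 in dual minus Atg7 (29.3%), 11 in Bdh2 minus control (21.9%; 5 higher and 6 lower), 1 in dual minus Bdh2 (7.38%) and 3 in the departure from additivity (4.57%). The block ended the dual minus control calls of uqcrq, cox6b2 and ndufb5, the dual minus Atg7 calls of ndufaf8, ndufb5 and sdhb, and the departure of atp5if1a (adjusted p = 0.101). Leaving out 1 replicate at a time gave 4 to 5 in Atg7 minus control (5.23% to 10.1% of all), 20 to 30 in dual minus control (26.5% to 33.1%), 14 to 22 in dual minus Atg7 (26.2% to 33.2%), 12 to 22 in Bdh2 minus control (23.3% to 29.0%), 2 in dual minus Bdh2 throughout (8.91% to 12.9%) and 3 to 4 in the departure (5.54% to 7.94%).

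Complex medians shifted by small amounts. With quantile normalization they were -0.007 for complex III in Atg7 minus control, -0.105 for complex IV in dual minus control, -0.039 for complex III in dual minus Atg7, -0.118 for complex IV in Bdh2 minus control and 0.041 for complex IV in dual minus Bdh2. Counting ndufa4a and ndufa4b with complex I gave -0.117 for complex IV in Bdh2 minus control. Leaving out 1 replicate gave -0.055 to -0.001 for complex IV in Atg7 minus control. In dual minus control it gave -0.092 to -0.066 for complex IV and -0.038 to 0.007 for complex V. In dual minus Atg7 it gave -0.056 to 0.003 for complex I, -0.049 to 0.014 for complex III and -0.091 to -0.058 for complex IV. In Bdh2 minus control it gave -0.087 to -0.060 for complex I, -0.094 to -0.013 for complex III and -0.044 to -0.027 for complex V. In dual minus Bdh2 it gave 0.030 to 0.088 for complex I, -0.036 to 0.027 for complex II and 0.034 to 0.057 for complex IV. Some of these ranges crossed 0 and others did not. The complex IV median stayed below 0 under all alternatives in dual minus control, dual minus Atg7 and Bdh2 minus control. No complex median was tested, so no direction is concluded from medians this close to 0.

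Of 42 calls of named members, 29 held under all 12 alternatives run on single members (quantile normalization, the block, the trend and 9 arrays left out in turn) and 13 were lost under 1 or more, 6 of them with the replicate block and 5 with quantile normalization, and none reversed. The cause of these shifts was not tested, beyond the fewer arrays when 1 is left out. With 3 arrays a group and 1 for Bdh2, differences near the members' median SE cannot be resolved. This SE is 0.0606 between triplicates, 0.0857 with the Bdh2 array and 0.105 for the departure. Differences well above it also went uncalled. In Atg7 minus control, sizes of up to 0.318 were not called, and the smallest called was 0.386. These sizes were 0.238 and 0.166 in dual minus control and 0.207 and 0.169 in dual minus Atg7. A p over the threshold does not show equal levels.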
